A study of Mus musculus with 18 samples.

Results

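The sarcomeric myosin light chains are the small subunits that sit on the neck of each myosin head in striated muscle. They were measured by every probe set whose only gene symbol in the platform annotation was Myl1, Myl3, Myl4, Mylpf, Myl2 or Myl7, which gave 8 of 12422 probe sets, for 6 of the 8251 genes named by the array's single-symbol probe sets. The 8 probe sets are 92541_at (Myl1), 93514_at (Myl3), 100828_at and 160487_at (Myl4), 162101_f_at and 92881_at (Mylpf), 93050_at (Myl2) and 100403_at (Myl7). All 8 passed the filter on dim probe sets, a reading above the 40th percentile of an array on at least 3 of 18 arrays, and a probe set could pass it through the tissue where it is bright.

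Total RNA of extraocular muscle, leg muscle and heart muscle from dko and mdx mice of 8 weeks was hybridised to 18 Affymetrix mouse arrays, 3 for each of the 6 groups of genotype and tissue. The mdx mice, named as control in the labels, lack dystrophin, the protein that links the cytoskeleton of a muscle fibre to its membrane. The labels do not spell out dko; it commonly denotes double knockout mice without utrophin, a relative of dystrophin, as well as dystrophin, so all 6 groups would share the loss of dystrophin, and there is no group of healthy muscle. The labels name neither the leg muscles, the part of the heart nor whether samples were pooled, and nothing in them says that the 3 arrays of a group came from separate animals, so p-values measure the spread between arrays, which may be technical.

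A myosin head carries an essential and a regulatory light chain, which stiffen the lever arm, and phosphorylation of the regulatory chain tunes contraction. Each muscle type uses its own pairing: fast skeletal fibres use Myl1 (essential) and Mylpf (regulatory), slow skeletal fibres and the ventricle use Myl3 (essential) and Myl2 (regulatory), and the atrium uses Myl4 (essential) and Myl7 (regulatory). Myl4 is also the essential chain of embryonic skeletal muscle. In a bulk sample, fewer fibres of a type and less RNA in each fibre cannot be told apart.

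The start sites of 3 of these genes are shown because their readings set heart apart from skeletal muscle in the same direction in both genotypes: Myl7 and Myl3, bright in heart, and Mylpf, bright in skeletal muscle by its probe set 162101_f_at. Each sequence holds the 150 bases before the start site in RefSeq's annotation of GRCm38.p6, read 5′ to 3′ on the strand of the gene. Capitals mark matches to a CArG box, the motif of serum response factor, or to CAGCTG, the form of the E-box often bound by myogenic factors.
Myl7 (chr11:5898783-5898932, minus strand): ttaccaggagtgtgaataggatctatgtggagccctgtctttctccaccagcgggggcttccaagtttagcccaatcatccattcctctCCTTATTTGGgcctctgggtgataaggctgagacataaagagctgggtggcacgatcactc
Myl3 (chr9:110763528-110763677, plus strand): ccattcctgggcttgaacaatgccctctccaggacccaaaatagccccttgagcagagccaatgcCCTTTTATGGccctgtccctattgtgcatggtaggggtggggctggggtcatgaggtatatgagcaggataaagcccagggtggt
Mylpf (chr7:127211458-127211607, plus strand): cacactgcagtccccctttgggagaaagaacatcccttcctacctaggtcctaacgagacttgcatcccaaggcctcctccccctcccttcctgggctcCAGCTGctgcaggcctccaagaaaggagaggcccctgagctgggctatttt

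The CArG box lies 61 bases before the start in Myl7 and 85 bases before it in Myl3, and CAGCTG lies 51 bases before it in Mylpf. All 6 genes were matched by symbol, with 7 start windows, since Myl2 has 2. Over the 250 bases before the start, on both strands, a CArG box was found in the windows of Myl3 and Myl7 and in 1.47% of all 32851 windows in the table. CAGCTG was found in the windows of Mylpf, Myl1 and one start of Myl2 and in 13% of all windows. It is itself a form of the E-box CANNTG, which 66.2% of all windows hold. Among the members, every window but that of Myl4 held an E-box of some form. Those of the heart-bright genes were CAGGTG, 189 bases before the start of Myl3, and CACTTG, 168 bases before that of Myl7. The MEF2 motif was in 0 of the 7 windows and in 2.92% of all. These matches are letters in a window, not measured sites.

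The labels were checked against genes outside the family. The summed reading of 8 heart genes, among them Myh6, Tnnt2 and Ryr2, was 141100 to 369600 on the 6 heart arrays and 24800 to 47640 on the 12 others. Utrn, measured by 92507_at, had a lower mean in dko than in mdx in all 3 tissues: 304.8 against 748.1 (extraocular), 265.9 against 493.6 (leg) and 258.1 against 643.6 (heart). It passed the test below with the replicate block in extraocular muscle only (adjusted p = 0.0333). The other Utrn probe set, 92508_s_at, also had lower means in dko in all 3 tissues, with overlap in leg muscle (436.4 against 600.1). By the same test it passed in no tissue (adjusted p 0.418 to 0.86 with the block). The summed reading of 8 skeletal muscle genes was 55070 to 229700 on the 12 skeletal arrays and 14780 to 24040 on the heart arrays. The 2 extraocular markers on the array, of 5 listed, summed to 1438 to 3570 in extraocular muscle, 779.3 to 1732 in leg muscle and 576.2 to 1705 in heart, so the ranges overlapped. Array medians lay between 526.2 and 672.05. The arrays numbered 3 stood apart in every group: of the brightest 1% of probe sets (125 by mean), 70.4% read highest on array 3 in all 6 groups, against 10.1% of all probe sets. Results that rest on these arrays are given with and without them.

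**Figure D1:**
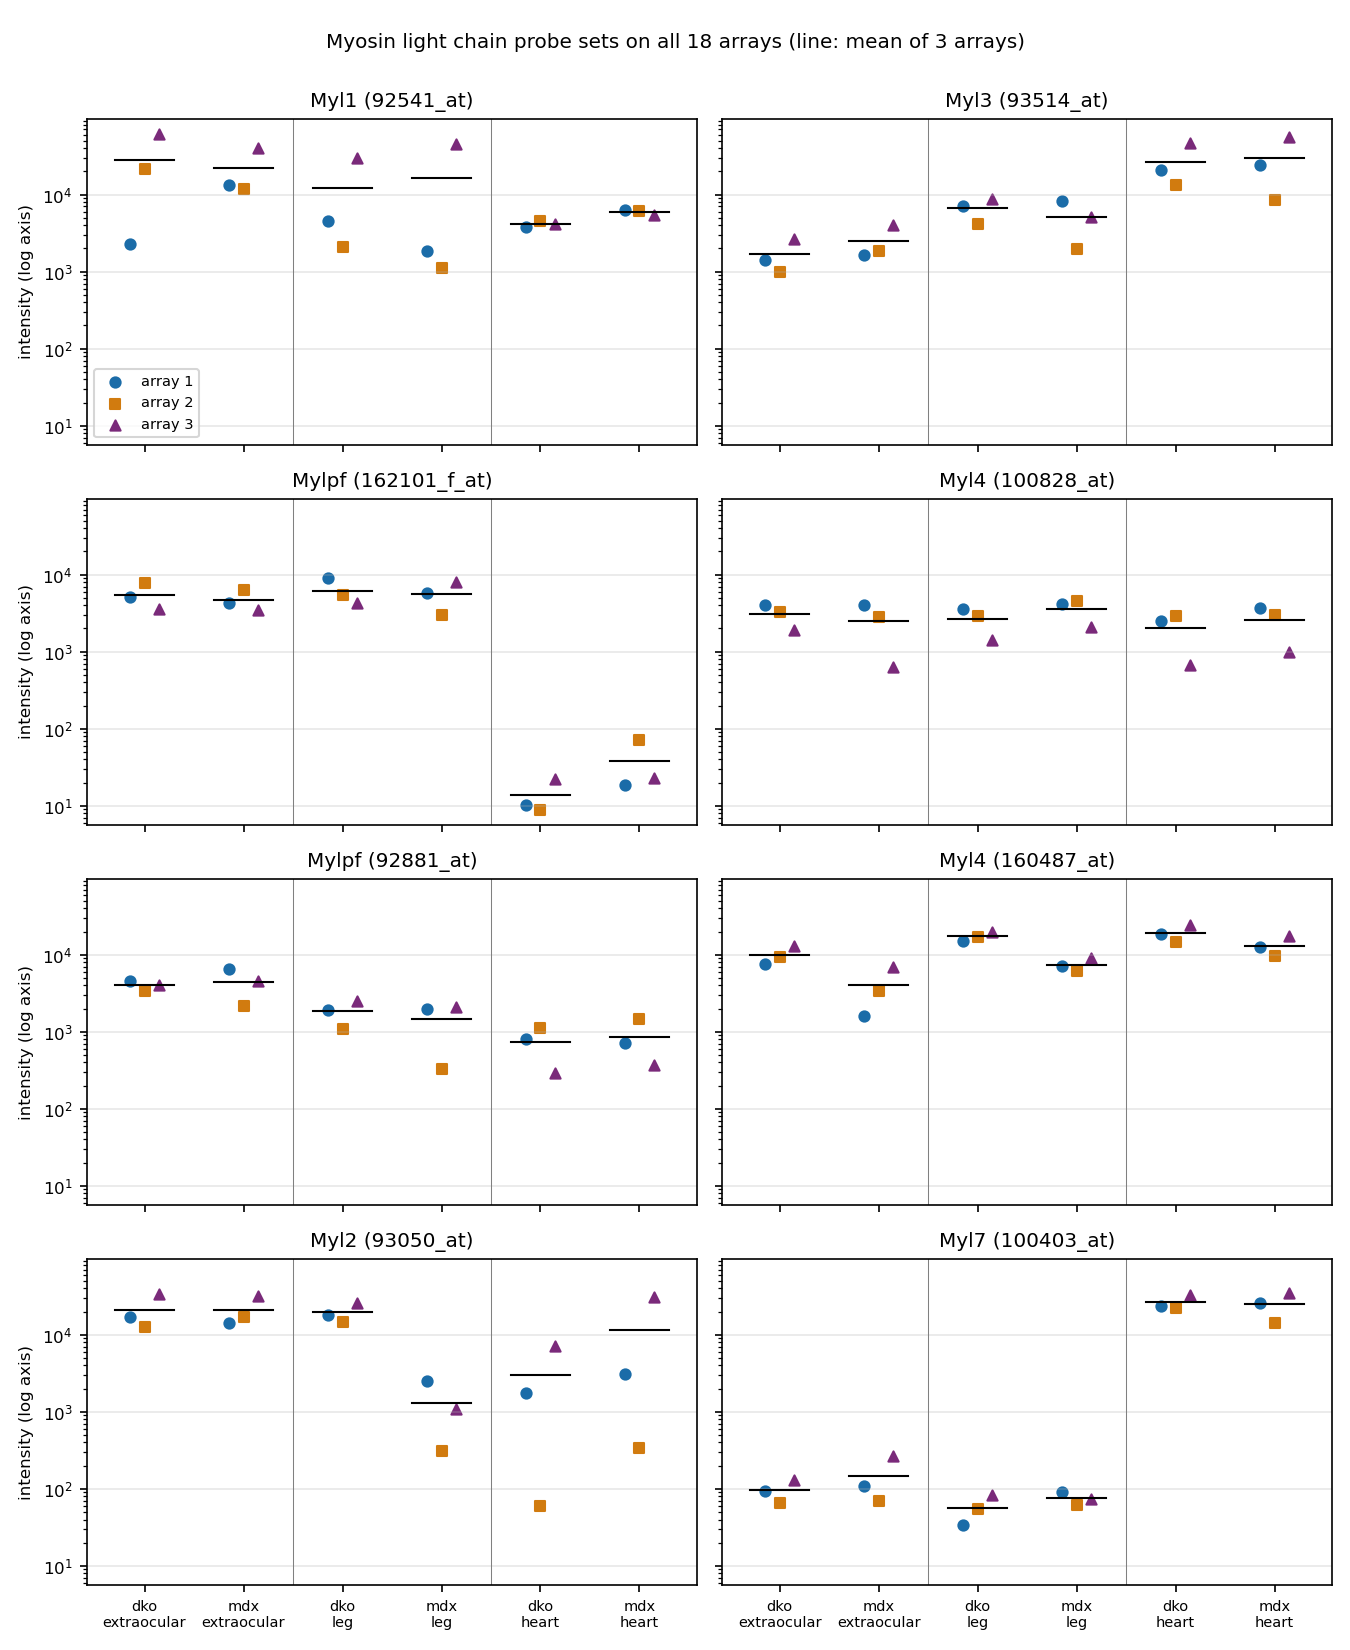
Intensity (log axis) of the 8 light chain probe sets on each of the 18 arrays, dko left of mdx within each tissue; markers give the array number and lines the mean of 3 arrays. Myl7 reads 14316.8 to 34736.6 in heart and 33.6 to 264.5 elsewhere, while Myl2 in mdx leg muscle reads 309.2 to 2478.1, below all 3 dko leg arrays.

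Among the essential chains, Myl1, which encodes the fast skeletal chains, read at or above the 63.6 percentile of each array. It was very uneven among arrays of a group in extraocular and leg muscle, but not in heart. In extraocular muscle it read 2270.2, 21269.4 and 61426.4 on dko arrays 1, 2 and 3, against 13289.2, 11903.4 and 40769.2 on mdx arrays. In leg muscle it read 4582.9, 2115.5 and 30031.9 in dko, against 1872.6, 1127.4 and 45718 in mdx. In both skeletal tissues array 3 was the brightest in each genotype, and the genotypes overlapped. In heart Myl1 read 3745.5, 4478.3 and 4195 in dko, against 6324.9, 6149.8 and 5347.2 in mdx. All 3 dko arrays lay below all 3 mdx arrays, with ratios of highest to lowest of only 1.20 and 1.18 within the groups. Here and below, groups without overlap are a description, and the share of all probe sets that separate so is not given. Dko extraocular array 1, dko leg array 2 and mdx leg arrays 1 and 2 read below every heart array. Whether this probe set follows the transcript of Myl1 was not tested.

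Myl3, the essential chain of the ventricle and of slow fibres, was brightest in heart. Its heart readings were 21134.5, 13110.6 and 45989.8 in dko, against 24168.6, 8540.3 and 56480.1 in mdx. Leg muscle followed, with 7046.2, 4166.5 and 8785.6 in dko, against 8265, 1959.6 and 5113.7 in mdx. Extraocular muscle was the lowest, with 1403.5, 985.8 and 2623.4 in dko, against 1636, 1875.3 and 4029.8 in mdx. The genotypes overlapped in every tissue, and the order heart, leg, extraocular held within each array number in dko and in mdx.

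Myl4, the essential chain of the atrium and of embryonic muscle, was measured by 2 probe sets that did not follow each other (Pearson's r of −0.43 over the 18 arrays, a description). The brighter, 160487_at, read 7517.9, 9236.1 and 12933.2 in dko extraocular muscle, against 1614.3, 3349 and 6991.9 in mdx. The leg readings were 15264.3, 16877.3 and 19724.8 in dko, against 7032.7, 6217.4 and 9047.8 in mdx. All dko arrays lay above all mdx arrays in both skeletal tissues. In heart it read 18616.8, 14723.7 and 24520.9 in dko, against 12457.5, 9509.7 and 17512 in mdx; dko was the higher of each same-numbered pair, with overlap.

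The other Myl4 probe set, 100828_at, read 4062.5, 3231.3 and 1925.8 in dko extraocular muscle, against 4092.1, 2845 and 629.2 in mdx. Leg muscle gave 3542.1, 2931.9 and 1435.8 in dko, against 4161.2, 4495.1 and 2078.8 in mdx. In heart it read 2486.9, 2934.2 and 681.2 in dko, against 3685.7, 2982.9 and 996.4 in mdx. The genotypes overlapped in every tissue, and this probe set was the only one of the 8 that read lowest on array 3 in all 6 groups. Which of the 2 probe sets follows the transcript was not tested.

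Among the regulatory chains, Mylpf, the fast skeletal chain, was read by 162101_f_at in skeletal muscle and close to 0 in heart. In extraocular muscle it read 5168.2, 7707.9 and 3619.5 in dko, against 4345.1, 6398.3 and 3487.6 in mdx. Leg readings were 8971.4, 5360.1 and 4244.2 in dko, against 5719.9, 2958.4 and 8071.6 in mdx. Its heart readings were 10.3, 8.8 and 22.3 in dko, against 18.5, 72 and 22.7 in mdx, at or below the 13.5 percentile of each array.

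The other Mylpf probe set, 92881_at, kept a reading in heart. It gave 4620.4, 3414.3 and 3994.9 in dko extraocular muscle, against 6428.6, 2145 and 4596.7 in mdx. Leg muscle gave 1932.2, 1097.3 and 2516.2 in dko, against 1957.3, 329.1 and 2107.9 in mdx. In heart it gave 814.1, 1108.7 and 295.3 in dko, against 724.6, 1478.3 and 375.7 in mdx, so that heart and leg readings overlapped here, while those of 162101_f_at did not. The r between the 2 probe sets was 0.65 over 18 arrays.

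Myl2, the regulatory chain of slow fibres and of the ventricle, gave the widest difference between genotypes in the family. In leg muscle it read 18139, 14862.3 and 25841.6 in dko, against 2478.1, 309.2 and 1094 in mdx. The lowest dko leg array was above the highest mdx leg array, and the dko leg readings lay in the range of extraocular muscle, which was 16835.5, 12742.2 and 33419.1 in dko, against 14182, 16891.6 and 31770.6 in mdx. In heart Myl2 read 1740.2, 60.5 and 7243.9 in dko, against 3140.2, 339.6 and 30900 in mdx; array 2 was lowest and array 3 highest in both genotypes. The reading of 60.5 on dko heart array 2 was at the 12.1 percentile of that array, while Myl7 read 22158.8 there, cardiac troponin T (Tnnt2) 33372.3 and the natriuretic peptide Nppa 16209.8. Other cardiac genes were lowest on that array too. Myh6 read 9180.2 there, against 24958 and 62137.1 on dko heart arrays 1 and 3, and Myl3 read 13110.6, against 21134.5 and 45989.8. In mdx heart Myh6 was also lowest on array 2 (6873.7, against 30609.1 and 68085.4). Myl2 was measured by 93050_at alone, and its heart readings were uneven although the ventricle uses this chain. The highest heart reading was 120 times the lowest in dko and 91 times in mdx. Whether 93050_at follows the transcript in heart was not tested, and the heart comparisons of Myl2 below rest on it.

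Myl7, the regulatory chain of the atrium, was bright in heart alone among the 3 tissues. It gave 23789.7, 22158.8 and 33121 in dko heart, against 26192, 14316.8 and 34736.6 in mdx heart. In extraocular muscle it gave 94.6, 64.8 and 131.5 in dko, against 109.2, 69 and 264.5 in mdx. Leg muscle gave 33.6, 54.5 and 82.3 in dko, against 91.8, 61.5 and 74 in mdx. Heart lay above all 12 skeletal arrays, and the genotypes overlapped in each tissue.

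Within-group spread differed widely among the members. The mean within-group SD on the log2(intensity + 166.7) scale was 1.41 for Myl2 and 1.39 for Myl1, above 99.8% and 99.7% of the 8888 tested probe sets, whose median was 0.35. It was 0.85 for Myl3, 0.83 for Myl4 100828_at and 0.72 for Mylpf 92881_at, which was above 91.9% of the tested probe sets. Myl7 (0.31), Mylpf 162101_f_at (0.41) and Myl4 160487_at (0.44) were nearer to the median. A difference of a given size was therefore least precise for Myl1 and Myl2.

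Of the 8 probe sets, those of Myl1, Myl2 and Myl3 read furthest above the other arrays on array 3. On array 3, against the mean of arrays 1 and 2 of the same group, Myl1 read higher by 2.1 on average on the log2 scale, Myl2 by 1.85 and Myl3 by 1.1, against −0.06 for the median probe set and 0.67 for the median of the brightest 1%. For Myl1 the difference was 3.09 in dko extraocular muscle and 1.68 in mdx, 3.20 in dko leg muscle and 4.82 in mdx, but 0.03 in dko heart and −0.22 in mdx. For Myl2 it was largest in heart, at 3.49 in dko and 4.59 in mdx. For the 2 Myl4 probe sets it had opposite signs in every group, positive for 160487_at and negative for 100828_at.

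**Figure D2:**
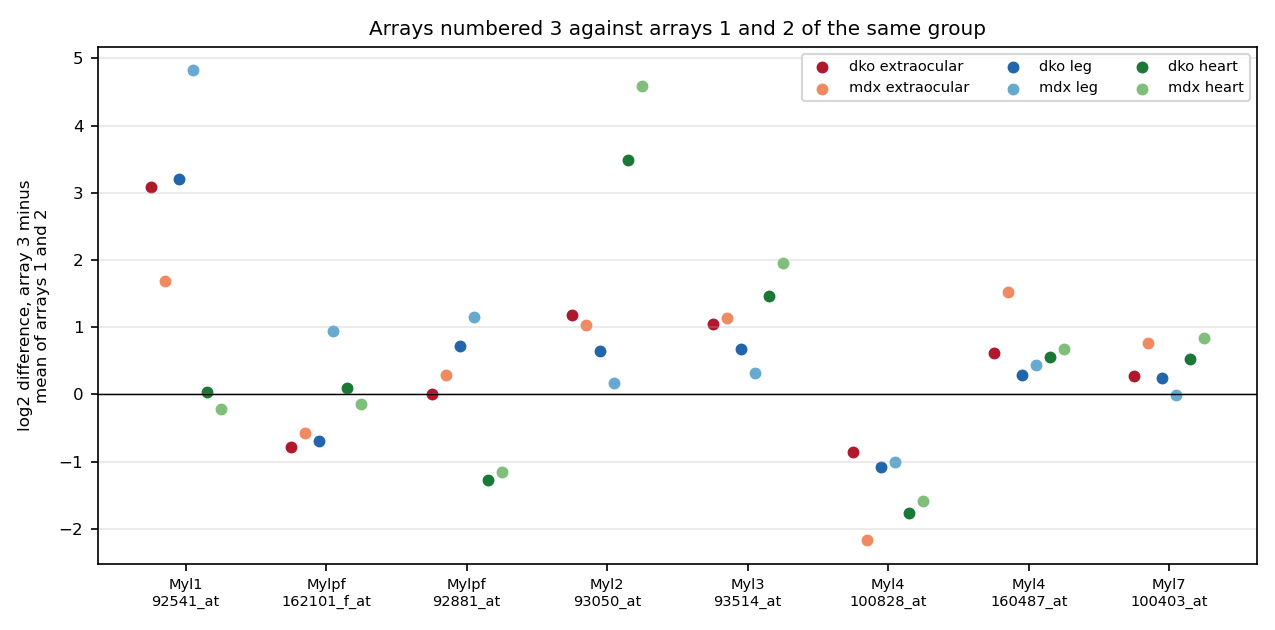
Log2 difference between array 3 and the mean of arrays 1 and 2 of the same group, for each light chain probe set and group (y axis; 1 point per group, 0 means no difference). Points of Myl1 reach 4.82 in mdx leg muscle, points of Myl4 100828_at all lie below 0 and points of Myl4 160487_at all lie above it.

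A single leg array also read low for most of the family. On mdx leg array 2, 7 of the 8 probe sets had the lowest of the 3 mdx leg readings, where 25.4% of all probe sets did. The fast-fibre genes Myh4 (myosin heavy chain IIb) and Actn3 (alpha-actinin 3) read 461.3 and 520.2 there, against 10917.9 and 10541.9 on mdx leg array 1 and 48678.2 and 39332 on mdx leg array 3. Fast-fibre genes did not all read low there: Myh1 read 20582.5, against 23697 and 65337.3 on mdx leg arrays 1 and 3. The lowest of the 3 mdx leg readings was 5939.3 for Tnni2 and 26156.1 for Pvalb, but 700.1 for Tnnc2 and 7.9 for Casq1. The part of that array in the results below is given by leaving it out.

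Tissue differences were tested first within each genotype with limma, on log2(intensity + 166.7), with Benjamini-Hochberg adjustment across the 8888 tested probe sets. A probe set passed at an adjusted p under 0.05. Each test was repeated with the replicate number as a block, a fit that compares arrays of the same number, because same-numbered arrays deviated together. The offset makes fold changes of dim readings smaller than the ratio of their means.

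Heart against leg muscle separated Myl7 and the Mylpf probe set 162101_f_at furthest. In dko, 1 probe set was higher and 1 lower in heart (10.7% of all tested probe sets passed), and with the block 2 were higher and 2 lower (23.5% of all). Myl7 averaged 26360 ± 5910 in dko heart and 56.8 ± 24.4 in dko leg muscle (SD, n = 3 each; log2 difference 6.87, SE 0.29, adjusted p = 4.41e-10), and Mylpf 162101_f_at averaged 13.8 ± 7.4 in dko heart and 6192 ± 2470 in dko leg muscle (−5.07, SE 0.36, adjusted p = 8.35e-08). Both differed in 3 of 3 same-numbered pairs. The other Mylpf probe set, 92881_at, passed in neither genotype, and its groups overlapped. It gave −1.21 in dko (adjusted p = 0.253, and 0.141 with the block) and −0.53 in mdx (adjusted p = 0.745, and 0.556 with the block).

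Myl3 and Myl2 passed between dko heart and dko leg muscle with the block only. Myl3 averaged 26740 ± 17100 in heart and 6666 ± 2330 in leg muscle (log2 difference 1.85, SE 0.66; adjusted p = 0.0927, and 0.00181 with the block). Myl2 averaged 3015 ± 3760 in heart and 19610 ± 5640 in leg muscle (−3.71, SE 1.25; adjusted p = 0.0738, and 0.0061 with the block). All 3 dko heart arrays read below all 3 dko leg arrays. Without the arrays numbered 3 its difference was −4.66 (adjusted p = 0.0227, and 0.00491 with the block), and leaving out 1 pair of arrays at a time gave −4.66 to −2.54, with 2 of 3 values past the threshold with the block and the miss where the arrays numbered 2 were out (−2.54).

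In mdx, 2 probe sets were higher and 1 lower in heart than in leg muscle (9.97% of all tested probe sets passed), and with the block 3 were higher and 1 lower (22.8% of all). Myl7 averaged 25080 ± 10300 in mdx heart and 75.77 ± 15.2 in mdx leg muscle (log2 difference 6.61, SE 0.29, adjusted p = 7.9e-10), and Mylpf 162101_f_at averaged 37.73 ± 29.8 and 5583 ± 2560 (−4.71, SE 0.36, adjusted p = 1.9e-07). Myl3 averaged 29730 ± 24400 in mdx heart and 5113 ± 3150 in mdx leg muscle (2.33, SE 0.66; adjusted p = 0.0325, and 0.000303 with the block). Without the arrays numbered 3 Myl3 kept its side of the threshold with the block alone (1.78; adjusted p = 0.117, and 0.0259 with the block), and 4 of the 6 fits that each left out 1 array missed it without the block, with adjusted p up to 0.17 when mdx leg array 2 was out. Myl4 160487_at passed with the block only (13160 ± 4050 in heart and 7433 ± 1460 in leg muscle, 0.78; adjusted p = 0.285, and 0.0469 with the block). It passed in 0 of the 3 blocked fits that left out a pair. Myl2 averaged 11460 ± 16900 in mdx heart and 1294 ± 1100 in mdx leg muscle (1.68, adjusted p = 0.546), the opposite sign to dko.

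Extraocular muscle against heart gave the same leading pair. In dko, 2 probe sets were higher and 2 lower in extraocular muscle (7.66% of all tested probe sets passed), and with the block 3 were higher and 3 lower (18.6% of all). Mylpf was higher by both probe sets, 162101_f_at by 4.91 (SE 0.36, adjusted p = 1.33e-07) and 92881_at by 2.32 (SE 0.58, adjusted p = 0.0194). Myl7 was lower (log2 difference −6.64, SE 0.29, adjusted p = 5.56e-10), and Myl3 averaged 1671 ± 851 in dko extraocular muscle and 26740 ± 17100 in dko heart (−3.78, SE 0.66, adjusted p = 0.00127). With the block Myl2 was higher in extraocular muscle (21000 ± 10900 against 3015 ± 3760, 3.72; adjusted p = 0.091, and 0.0078 with the block) and Myl4 160487_at lower (9896 ± 2770 against 19290 ± 4930, −0.96; adjusted p = 0.192, and 0.021 with the block). With the block, the Myl2 difference missed the threshold where the arrays numbered 2 were out (2.67, adjusted p = 0.116), and the Myl4 difference missed it in all 3 fits that left out a pair (adjusted p 0.0583 to 0.161). Without all arrays numbered 3, Myl2 passed in both fits (4.49; adjusted p = 0.0354, and 0.00762 with the block), while Myl4 did not (−0.98; adjusted p = 0.0836 with the block).

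In mdx, 2 probe sets were higher and 3 lower in extraocular muscle than in heart (7.05% of all tested probe sets passed), and the same 5 passed with the block (17.7% of all). Mylpf was higher by 4.55 (162101_f_at, SE 0.36, adjusted p = 3.8e-07) and 2.17 (92881_at, SE 0.58, adjusted p = 0.0316). The lower ones were Myl7 (log2 difference −6.29, adjusted p = 1.11e-09), Myl3 (−3.2, adjusted p = 0.00537) and Myl4 160487_at (3985 ± 2740 in extraocular muscle and 13160 ± 4050 in heart, −1.86, adjusted p = 0.00668). Without the arrays numbered 3 Mylpf 92881_at missed the threshold in both genotypes (1.89 in dko, adjusted p = 0.146; 1.69 in mdx, adjusted p = 0.203), while 162101_f_at stayed past it (5.2 in dko, adjusted p = 1.45e-05, and 4.69 in mdx, adjusted p = 3.19e-05). Without the block, Mylpf 92881_at also missed it in dko where extraocular array 1 or 3 or heart array 3 was out (adjusted p 0.0573 to 0.103), and in mdx where array 1 or 3 of either tissue was out (adjusted p 0.092 to 0.153).

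Between the 2 skeletal tissues no light chain passed without the block. In dko, extraocular against leg muscle gave 0 probe sets (2.14% of all tested passed; 928 of 8888 had an unadjusted p under 0.05, and 1 member) and 1 lower with the block (7.58% of all). That was Myl3, which averaged 1671 ± 851 in extraocular muscle and 6666 ± 2330 in leg muscle (−1.93, SE 0.66; adjusted p = 0.208, and 0.00467 with the block), with no overlap. With the block it missed the threshold where the arrays numbered 1 were out (−1.8, adjusted p = 0.0545), and without all arrays numbered 3 it was −2.06 (adjusted p = 0.0478).

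In mdx, extraocular against leg muscle gave 0 probe sets (4.02% of all tested passed; 3 members had an unadjusted p under 0.05), and 1 higher and 1 lower with the block (12.4% of all). Myl2 averaged 20950 ± 9470 in mdx extraocular muscle and 1294 ± 1100 in mdx leg muscle (4.09, SE 1.25, 17-fold; adjusted p = 0.089, and 0.00647 with the block). With the block it missed the threshold where the arrays numbered 2 were out (3.55, adjusted p = 0.0723), and without all arrays numbered 3 it was 3.8 (adjusted p = 0.0975, and 0.0268 with the block). In dko the same difference was 0.01 (SE 1.25; 21000 ± 10900 and 19610 ± 5640), as the values by array show. Myl4 160487_at averaged 3985 ± 2740 in mdx extraocular muscle and 7433 ± 1460 in mdx leg muscle (−1.08; adjusted p = 0.181, and 0.0154 with the block), and without the arrays numbered 3 it passed in both fits (−1.44; adjusted p = 0.0375, and 0.0283 with the block). With the block it missed the threshold where the arrays numbered 1 or 2 were out (−0.61, adjusted p = 0.103, and −1.19, adjusted p = 0.0653).

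**Figure D3:**
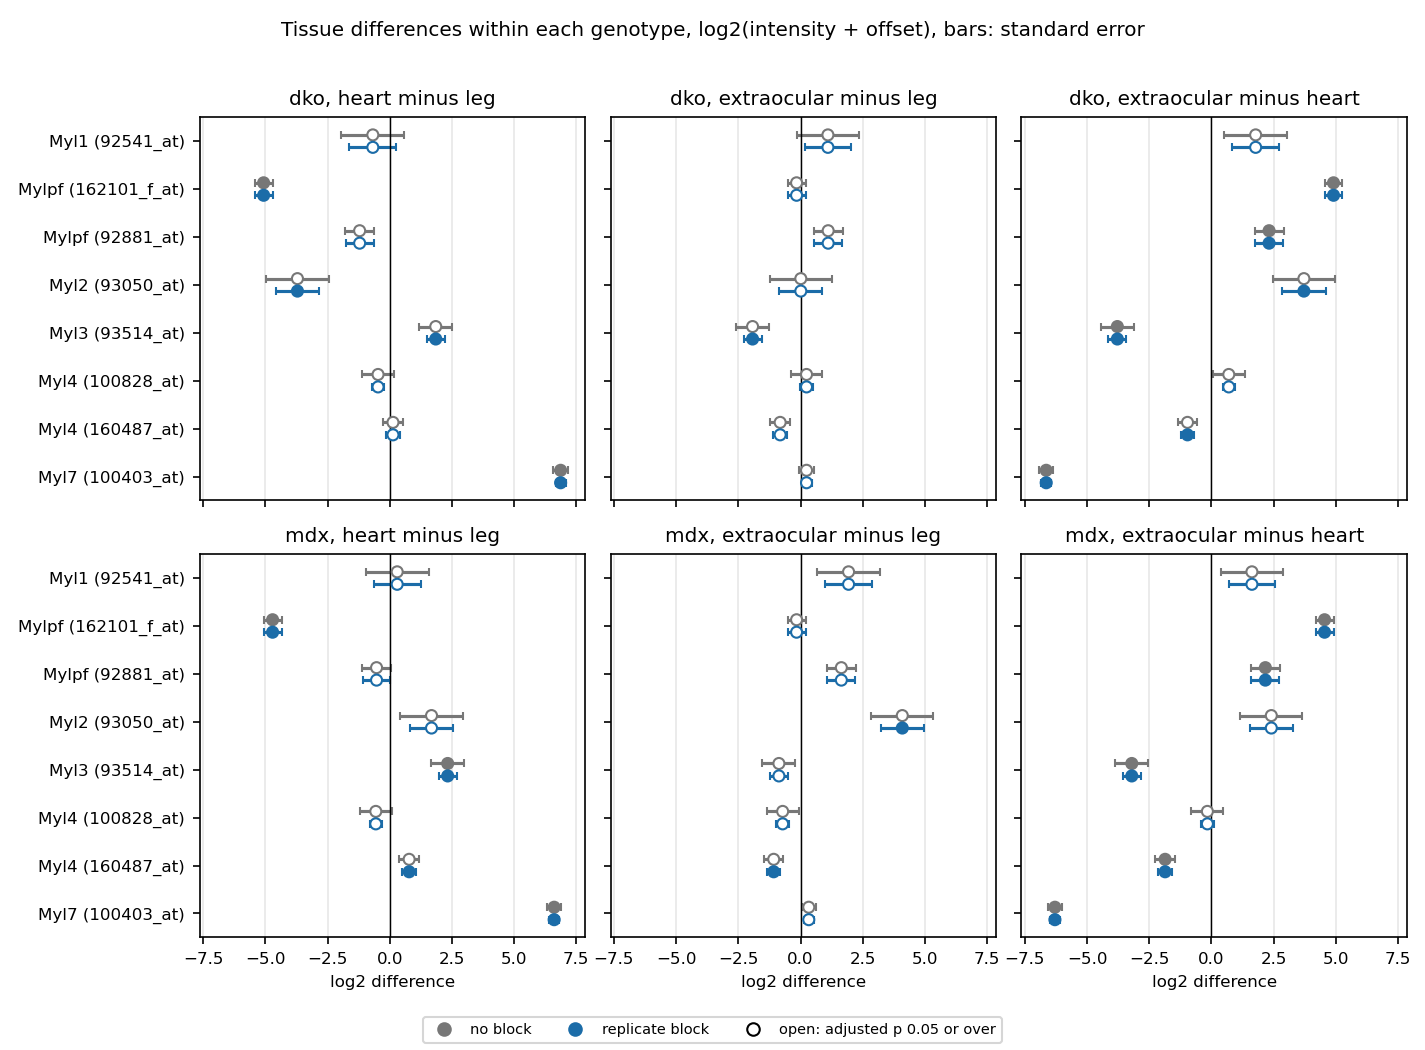
Log2 differences between tissues for each light chain probe set, dko in the top row and mdx below, with standard errors as bars; grey points are fits without a block, blue points fits with the replicate block, and filled points have an adjusted p under 0.05. Myl7 lies at 6.61 to 6.87 for heart minus leg, and Myl2 lies at 4.09 in mdx but at 0.01 in dko for extraocular minus leg.

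The comparison of dko with mdx asks what changes in the same muscle between the genotypes. In leg muscle 0 of the 8 probe sets passed without the block (0.0563% of all tested passed, 5 of 8888), and 2 passed with the block, both higher in dko (1.2% of all, 107 of 8888). The median log2 difference of the 8 was 0.5, against −0.04 over all tested probe sets. In extraocular muscle 0 passed without the block (0.0225% of all tested passed, 2 of 8888) and 1 passed with it, higher in dko (0.158% of all, 14 of 8888), and the medians were −0.02 for the 8 and −0.01 for all. In heart 0 passed in either fit, where 0% of all tested probe sets passed (130 had an unadjusted p under 0.05 without the block and 494 with it, against 0 of the 8 without it and 2 with it, Myl2 and Myl4 160487_at), and the medians were −0.16 and −0.01.

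Myl2 in leg muscle had the largest difference of any member, with means of 19610 ± 5640 in dko and 1294 ± 1100 in mdx leg muscle (SD, n = 3 each; a log2 difference of 4.05, which is 16.5-fold, with dko higher in 3 of 3 pairs). The SE was 1.25 without the block and 0.37 with it, for adjusted p of 0.402 and 0.00193, and 95% intervals of 1.40 to 6.69 and 3.22 to 4.87. With the block it passed in all 3 fits that left out a pair of leg arrays (3.58 to 4.67, adjusted p 0.00128 to 0.0194), the pair with mdx leg array 2 included (3.58, adjusted p = 0.0194). Without the block, leaving out mdx leg array 2 alone gave 3.4 (adjusted p = 1). With all 6 arrays numbered 3 left out, it was 3.89 and missed the threshold (adjusted p = 0.299, and 0.0844 with the block), in a fit where 0 of 8888 probe sets passed.

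Myl2's usual partner among the heavy chains moved beside it in leg muscle. Myh7, the slow and cardiac heavy chain, read 17632.2, 15031.4 and 16145.1 in dko leg muscle, against 241.2, 1999.2 and 363 in mdx (4.4, adjusted p = 0.000559). Within mdx the 2 genes did not share an order: array 2 had the highest Myh7 and the lowest Myl2. Myl3, the slow essential chain, averaged 6666 ± 2330 in dko leg muscle and 5113 ± 3150 in mdx leg muscle (0.52, adjusted p = 1, and 0.321 with the block), with a 95% interval of −0.05 to 1.09 with the block.

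Myl4 160487_at rose with the block in both skeletal tissues. In extraocular muscle it averaged 9896 ± 2770 in dko and 3985 ± 2740 in mdx (1.47, 2.76-fold, SE 0.39; adjusted p = 0.755, and 0.0325 with the block, where the SE was 0.2). Leg muscle averaged 17290 ± 2260 in dko and 7433 ± 1460 in mdx (1.21, 2.31-fold, SE 0.39; adjusted p = 0.46, and 0.0262 with the block). Both were higher in 3 of 3 pairs, and neither held in every fit that left out a pair: the extraocular difference passed in 1 of 3, where the arrays numbered 3 were out (adjusted p 0.0396 to 0.226), and the leg difference in 0 of 3 (adjusted p 0.0725 to 0.163). With all arrays numbered 3 left out, the differences were 1.76 and 1.26 (adjusted p = 0.295 and 0.111 with the block). In heart it averaged 19290 ± 4930 in dko hearts and 13160 ± 4050 in mdx hearts (0.56, adjusted p = 1, and 0.836 with the block).

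The other Myl4 probe set gave 0.52 in extraocular muscle, −0.43 in leg muscle and −0.34 in heart, with an adjusted p of 1 in each without the block and 0.631, 0.388 and 0.943 with it. Macrophage genes moved with the genotype in the same skeletal tissues, but not in heart. The summed reading of 8 of them was 39890 to 42060 in dko extraocular muscle, against 13490 to 18960 in mdx. In leg muscle it was 42680 to 81310 in dko, against 22600 to 44030 in mdx, with overlap. The heart sum was 15360 to 17350 in dko, against 14090 to 17810 in mdx. Of these 8 genes, 1 rose in extraocular muscle without the block (Ctss) and 3 with it (Ctss, Lgals3 and Mpeg1), and in leg muscle 0 rose without the block and 2 with it (Csf1r and Cd53). Of 8 genes of embryonic or regenerating fibres, 0 passed in extraocular muscle in either fit, while in leg muscle 1 rose without the block (Myh3) and 3 with it (Myh3, Myh8 and Chrna1). Their sum was 44860 to 68730 in dko extraocular muscle, against 36360 to 57040 in mdx, and 43110 to 70870 in dko leg muscle, against 32120 to 41650 in mdx. Of 5 atrial genes on the array 0 passed in either skeletal tissue, and their sum was 3128 to 4811 in dko extraocular muscle, against 2838 to 5236 in mdx, and 2449 to 5066 in dko leg muscle, against 2608 to 5155 in mdx. The part of these cells in the Myl4 difference was not tested.

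Myl1, Mylpf and Myl7 had no difference between genotypes past the threshold in any tissue. Their 95% intervals without the block show how large a difference could have gone unseen. For Myl1 they ran from −3.02 to 2.32 in extraocular muscle, −2.19 to 3.15 in leg muscle and −3.17 to 2.17 in heart, the widest in the family. For Mylpf 162101_f_at they were −0.58 to 0.95 in extraocular muscle and −0.58 to 0.95 in leg muscle, for Mylpf 92881_at −1.24 to 1.23 and −0.71 to 1.76 in the same tissues, and for Myl7 −0.48 to 0.76 in heart. In heart Myl1 averaged 4140 ± 370 in dko hearts and 5941 ± 521 in mdx hearts (−0.5, adjusted p = 1, and 0.965 with the block). Its SE of 1.26 is set by the skeletal arrays too, since the fit shares 1 spread over all groups. Myl2 in heart averaged 3015 ± 3760 in dko hearts and 11460 ± 16900 in mdx hearts (−1.34; adjusted p = 1, and 0.634 with the block), lower in 3 of 3 pairs with overlap.

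**Figure D4:**
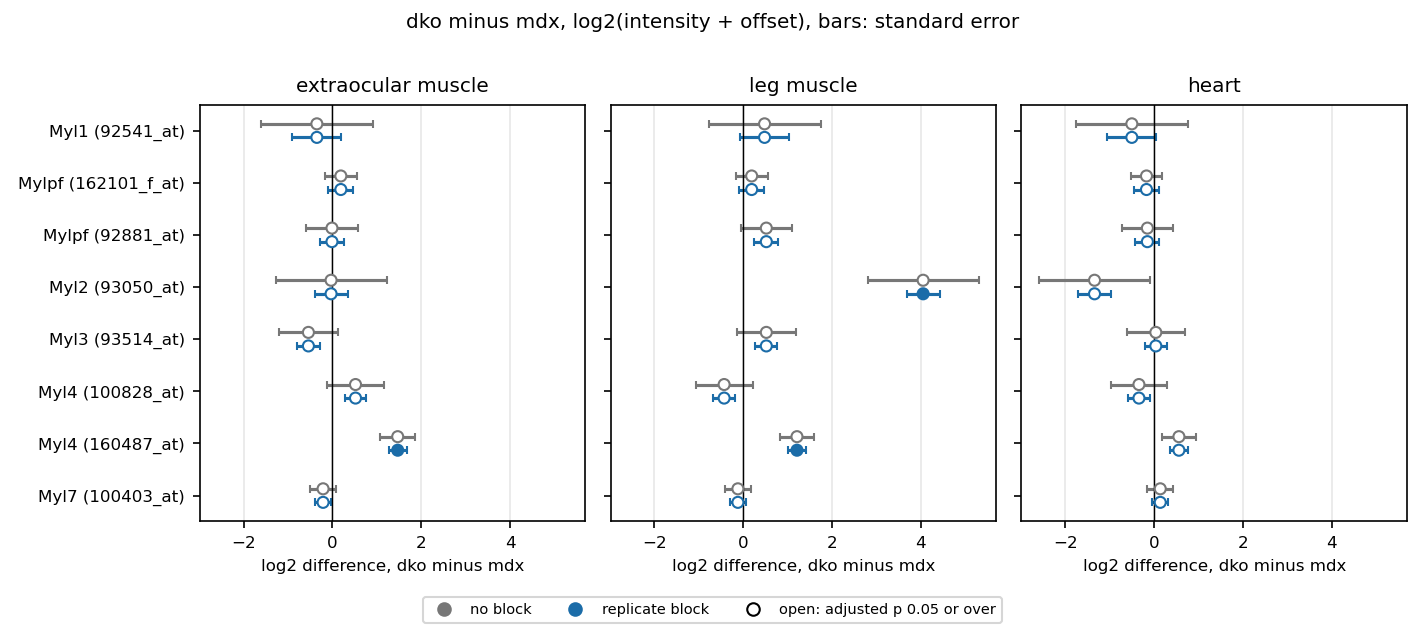
Log2 difference, dko minus mdx, of each light chain probe set in extraocular muscle, leg muscle and heart (left to right), with standard errors as bars; grey points are fits without a block, blue points fits with the replicate block, and filled points have an adjusted p under 0.05. Filled points are Myl4 160487_at in extraocular muscle (1.47) and leg muscle (1.21) and Myl2 in leg muscle (4.05), all with the block.

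Whether the genotype difference itself depended on the tissue was tested as an interaction. In the fit with no block, none of the 8 light chain probe sets passed in any of the 3 interactions (0% of all 8888 passed in each, with 180, 259 and 124 at an unadjusted p under 0.05 for extraocular minus leg, heart minus leg and extraocular minus heart). With the block Myl2 passed in 2 of them. Its dko minus mdx difference was lower in extraocular than in leg muscle by a log2 difference of −4.07 (SE 1.76 without and 0.52 with the block; adjusted p = 1, and 0.0481 with the block, where 0.0338% of all tested passed, 3 of 8888). It was lower in heart than in leg muscle by −5.39 (SE 1.76 and 0.52; adjusted p = 1, and 0.00617 with the block, where 0.0675% of all tested passed, 6 of 8888). Between extraocular muscle and heart 0% of all passed with the block, and Myl2 gave 1.31 (adjusted p = 0.821 with the block). For Myl4 160487_at the 3 interactions were 0.26, −0.65 and 0.91, with adjusted p of 0.822, 0.444 and 0.706 with the block, so a difference between tissues in its response was not shown.

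Related myosin genes were counted beside the family. Of 9 sarcomeric heavy chains, 7 are on the array and 6 were tested. Between dko and mdx leg muscle 2 of the 6 rose without the block, Myh7 and the embryonic Myh3 (8707 ± 2770 in dko and 1981 ± 604 in mdx, 2.04, adjusted p = 0.023). Myh8, the perinatal chain, rose with the block only (4779 ± 960 and 2181 ± 475, 1.08; adjusted p = 0.0856, and 0.0289 with the block). In extraocular muscle and heart 0 of the 6 passed in either fit. Of 10 slow-fibre genes, 9 were tested; 1 rose in dko leg muscle without the block (Myh7) and 6 with it (Myh7, Tnnc1, Tnnt1, Tnni1, Tpm3 and Atp2a2), and of 9 tested fast-fibre genes 0 passed.

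Genes listed as light chains of smooth and non-muscle myosin were counted in the same way. The list does not show that a gene is absent from striated fibres. Whether Myl6b was read from such fibres was not tested. Of 5 genes listed, 4 are on the array and 3 were tested (Myl6b, Myl9 and Myl12b), and 0 passed between dko and mdx in any tissue in either fit. Myl6b, by its brighter probe set 92670_at, averaged 1738 ± 70 in dko and 1368 ± 144 in mdx leg muscle (0.32, adjusted p = 1, and 0.302 with the block). All 3 dko leg arrays (1666.7 to 1806.6) lay above all 3 mdx leg arrays (1251.5 to 1528) by 92670_at, a description only, since the difference did not pass. With the block, Myl6b and Myl9 passed as higher in mdx extraocular than in mdx leg muscle, as Myl2 did, and in dko Myl9 alone passed. Among tissues Myl6b was higher in extraocular muscle than in heart, in dko by 2.13 (5563 ± 4250 and 985.9 ± 395, adjusted p = 0.0108) and in mdx by 2.46 (6280 ± 5110 and 808.8 ± 237, adjusted p = 0.0039). Its other probe set, 97101_at, was too dim to be tested and averaged 310.1 ± 221 in dko extraocular muscle and 101.9 ± 26.7 in dko heart, and 244.8 ± 47.5 and 152.9 ± 69.6 in mdx. In leg muscle it averaged 230.1 ± 147 in dko and 273 ± 46.2 in mdx, the opposite sign to 92670_at.

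Of 10 genes for the kinases and the phosphatase that act on regulatory light chains, 4 are on the array and 3 were tested (Mylk, Ppp1cb and Rock1), and 0 passed between dko and mdx in any tissue in either fit. Mylk, myosin light chain kinase of smooth muscle, averaged 5167 ± 606 in dko extraocular muscle and 2654 ± 429 in dko leg muscle (0.92; adjusted p = 0.0824, and 0.0147 with the block), and 5462 ± 611 and 2660 ± 1010 in mdx (1.06; adjusted p = 0.0276, and 0.00411 with the block). Of the myosin binding proteins Mybpc3 and Mybph, 0 passed between dko and mdx in any tissue.

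The members did not vary as one group over the 18 arrays, which share 3 tissues, so that each r below is a description. Mylpf 162101_f_at and Myl7 were opposed (r = −0.99), Myl3 followed Myl7 (0.83) and less closely Myl4 160487_at (0.67), and Myl2 had no r above 0.42 with another member. For each gene the 3 other genes most like its brightest probe set were listed by r. Those of Mylpf were Ryr1, the calcium release channel of skeletal muscle (0.99), Pvalb, the calcium buffer parvalbumin (0.98), and Tnni2, fast troponin I (0.98). Those of Myl7 were Entpd5, Slc12a7 and Acss1 (0.99 each), and those of Myl3 were Pkig (0.94), Gna12 (0.92) and Phb2 (0.92). Lower values were reached by Myl4 160487_at with Vasp (0.86), C1qa (0.85), a chain of complement, and Plekho1 (0.84), by Myl2 with Eln, elastin (0.85), Igfbp4 (0.85) and Il1r2 (0.82), and by Myl1 with Crhr2 (0.85), Aars (0.82) and Pgk1 (0.82).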

How the data were processed

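The deposited table holds 1 intensity per probe set and array, on a linear scale; the values show that the authors had brought the arrays to nearly equal means after 2% was trimmed off at either end. Per the labels, the standard Affymetrix protocol was used on total RNA; the software behind the table was not given in the sources used here. Detection calls were not used here, so a low reading is given as a reading. Of 12488 probe sets, 66 controls were left out, and 8888 of the other 12422 passed the filter. Genes were named from the platform annotation where a probe set had 1 symbol. From the deposited intensity, log2(intensity + 166.7) was computed, the offset being the median of the arrays' 25th percentiles (121.2 to 182.4). Group means were fitted to all 18 arrays with limma 3.58.1 in R 4.3.3 (12 residual and 3.52 prior degrees of freedom), with two-sided tests and Benjamini-Hochberg adjustment over 8888 probe sets in each of 12 contrasts. Plots used matplotlib 3.10.9 under Python 3.11.15.

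Each array has a replicate number, 1 to 3, in its label, whose meaning the labels leave unsaid. Deviations from group means correlated in all 9 same-numbered pairs of dko and mdx arrays of a tissue (0.404 to 0.751, median 0.61, across probe sets), and in all 36 pairs of other tissues (0.327 to 0.74). The replicate block is the number within tissue for dko against mdx and the interactions (6 residual degrees of freedom), and the number common to all arrays for tissue comparisons (10 residual degrees of freedom). The number of arrays limits the precision. The scripts were tested on simulated data whose spread was kept below that of Myl1 and Myl2. Recovery was scored for dko against mdx in leg muscle only, not for tissue comparisons or interactions.

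The members and the gene lists were chosen with earlier results of these data known. Every member probe set was named; where passing list genes were counted between dko and mdx, they were named, up to 6 by size of difference, and genes most alike by r as the top 3 per gene. Myh1, Myh4, Myh6, Actn3, Tnni2, Tnnc2, Pvalb, Casq1, Tnnt2, Nppa and Myl10 were named after their values were seen, as were the list genes given with values that did not pass. Alternatives were other offsets, filters and scalings, the block, fits of only the groups compared, and fits without single arrays, pairs or, added after seeing the data, the arrays numbered 3.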

Additional observations from a re-analysis of the deposited data

Results flagged for a closer look

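The dko minus mdx difference of Myl2 (93050_at) stood out because it differed between tissues by a test of the difference itself, with the replicate block only. Extraocular muscle minus leg muscle gave −4.07 on the log2 scale (adjusted p = 0.0481 with the block, 1 without it), and heart minus leg muscle gave −5.39 (adjusted p = 0.00617 with the block, 1 without it), both by limma. Both hold the leg difference of 4.05, from readings of 14862.3 to 25841.6 in dko leg muscle and 309.2 to 2478.1 in mdx. The second also holds the heart difference of −1.34 (95% interval with the block −2.16 to −0.52, adjusted p = 0.634), from uneven readings of 60.5 to 7243.9 in dko heart and 339.6 to 30900 in mdx. The first missed the threshold in all 3 blocked fits that left out a replicate number (−4.84 to −3.42, adjusted p 0.0506 to 0.365), and the second passed in 1 of 3 (−6.29 to −4.86, adjusted p 0.00311 to 0.123). With all arrays numbered 3 left out they were −3.96 and −4.86 (adjusted p = 0.442 and 0.247 with the block).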

How the results depend on the processing

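Values are counts of the 8 probe sets that passed. No difference that passed changed sign under the alternatives run, and no scaling moved the median of all probe sets by over 0.1. With the replicate block the counts were 1 for dko against mdx in extraocular muscle and 2 in leg muscle, 0 in both without it; 2 for extraocular against leg muscle in mdx and 1 in dko, 0 in both without it; 4 for heart against leg muscle in dko, 2 without it; and 1 for each of the interactions of extraocular minus leg and heart minus leg, 0 without it. The block changed no other count by over 1.5 times. Over all tested probe sets the block moved the count by over 1.5 times in 10 of 12 comparisons. With and without it these were 14 and 2 for dko against mdx in extraocular muscle and 107 and 5 in leg muscle; 674 and 190 (dko) and 1106 and 357 (mdx) for extraocular against leg muscle; 2093 and 951 (dko) and 2026 and 886 (mdx) for heart against leg muscle; 1650 and 681 (dko) and 1570 and 627 (mdx) for extraocular muscle against heart; and 3 and 0, and 6 and 0, for the interactions of extraocular minus leg and heart minus leg.

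A fit of only the groups compared gave 1 for mdx extraocular against leg muscle and 3, in place of 5, for mdx extraocular muscle against heart; the cause was not tested. Leaving out 1 array at a time without the block gave 0 to 1 for mdx extraocular against leg muscle, 4 to 5 for mdx extraocular muscle against heart, 2 to 3 for dko heart against leg muscle and 0 for dko against mdx in each tissue. Leaving out a pair with the block gave 0 to 1 for dko against mdx in extraocular muscle, 1 in each of 3 fits in leg muscle, 0 to 2 for mdx and 0 to 1 for dko extraocular against leg muscle, 3 to 4 for dko heart against leg muscle, and 0 and 0 to 1 for the 2 interactions. Without all arrays numbered 3, mdx extraocular against leg muscle gave 1 (2 with the block), dko extraocular against leg muscle 1 with the block and dko heart against leg muscle 4 with the block. Fewer arrays leave fewer degrees of freedom in these fits.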

Other observations

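Myl10, a regulatory light chain gene outside the family described, was higher in extraocular than in leg muscle in both genotypes by its probe set 101195_at. It averaged 1379 ± 673 in dko extraocular muscle and 175.3 ± 116 in dko leg muscle (SD, n = 3 each; log2 difference 2.12, limma adjusted p = 0.017), and 1560 ± 1240 in mdx extraocular muscle and 233.6 ± 169 in mdx leg muscle (1.97, adjusted p = 0.0185). It was also higher in extraocular muscle than in heart, by 2.48 in dko (92.03 ± 34 in heart, adjusted p = 0.00155) and 2.71 in mdx (58.9 ± 4.36 in heart, adjusted p = 0.000791). Between dko and mdx leg muscle its difference was −0.19 (adjusted p = 1).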
